A study of Mus musculus with 12 samples.

Results

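The 10 genes followed here form a set on the specific and gelatinase granules of neutrophils: Ltf, Camp, Ngp, Lcn2, Mmp8, Mmp9, Fcnb, Cd177, Chil3, and Cebpe, the last of which encodes a transcription factor rather than a granule protein. They were measured in 3 groups of myeloid-derived suppressor cells (MDSCs), were chosen by symbol, and each matched 1 of the 35303 gene symbols counted by bulk RNA sequencing. MDSCs are immature myeloid cells that restrain T cells. The cells were grown from bone marrow of female wild-type C57BL/6 mice, 6 to 10 weeks old, with the cytokines IL-6 and GM-CSF, and CD11b+Gr1+ cells were purified, which hold both polymorphonuclear and monocytic MDSCs. The 3 groups had 4 libraries each, described as biologically independent replicates. They were unmodified MDSCs (MDSC), MDSCs that carried drug-free nanoparticles of the polymer PLGA (MDSC-NP-Blk), and MDSCs that carried the same kind of particle loaded with rapamycin, an inhibitor of the kinase mTOR (CITED). Particles were joined to azide groups on the cell surface by click chemistry, and all groups were then kept with IL-6 for a day. Whether the unmodified cells also bore azide groups is not stated. The labels give CNS as the tissue, although by the study's methods the cells came from marrow cultures.

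Neutrophil granules are formed in sequence as the cell matures. Azurophil granules, with myeloperoxidase and serine proteases, arise in the promyelocyte. Specific granules, with lactoferrin and cathelicidin, follow in the myelocyte and metamyelocyte, gelatinase granules in the band cell, and secretory vesicles last. The transcription factor C/EBPε, the product of Cebpe, is required for the expression of many specific granule genes. In bulk RNA from such a mixture, fewer cells of a type cannot be told apart from less RNA per cell.

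The libraries held between 20604809 and 37855478 counts assigned to genes. The genes encoding the surface antigens used for purification were present in every library, with normalized counts of 50259 to 72108 for Itgam (CD11b), 3812 to 4999 for Ly6g, and 19121 to 34120 for Ly6c2. A normalized count is a count divided by the effective size of its library, on the scale of the mean library. The effective size came from edgeR's trimmed mean of M values (TMM), whose factors lay between 1.12 and 1.15 in MDSC but between 0.938 and 0.947 with blank particles and between 0.921 and 0.944 in CITED. With library size alone, the median of expressed genes was therefore moved by −0.27 (CITED against MDSC) and −0.26 (MDSC-NP-Blk against MDSC) on the log2 scale, and directions of granule genes that turned with this choice are given beside the result.

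Each comparison used edgeR's quasi-likelihood test on 17676 genes, all 10 granule genes among them, with Benjamini-Hochberg adjustment over all genes. A gene "rose" or "fell" where the adjusted p was below 0.05, and it was called where the absolute log2 fold change was also at least 1. In CITED against MDSC, 4 granule genes rose and 6 fell, and 2 were called in each direction. With library size alone, 2 rose and 7 fell, and 1 was called higher and 2 lower. Among all genes tested, 22.2% rose and 22.2% fell, and 3.28% were called higher and 6.7% lower. Over all genes these calls were 580 higher and 1185 lower, or 272 and 1890 with library size alone. All 10 granule genes had a mean normalized count above 50. Of the 10556 genes above that limit, 3761 rose and 3409 fell, and 427 were called higher and 705 lower. In MDSC-NP-Blk against MDSC, 8 rose, 1 fell, and 1 did not pass. With library size alone 6 rose and 3 fell, and with the effect of transcript length removed 7 rose and 2 fell. Over all genes, calls with library size alone were 146 higher and 1060 lower, whereas the shares that follow are those under TMM. None of the 10 was called by edgeR or by DESeq2, whereas 10 had an unadjusted p below 0.05. Of all genes, 1.88% were called higher and 2.86% lower, and 19.9% and 18.6% rose and fell. Among the 10556 genes above the limit of 50, 3393 rose and 2982 fell, and 216 were called higher and 232 lower. In CITED against MDSC-NP-Blk, 2 rose and 8 fell, and 3 were called lower. Of all genes, 10.5% rose and 11.4% fell, and 0.651% were called higher and 2% lower. Among the 10556 genes above the limit of 50, 1788 rose and 1899 fell, and 48 were called higher and 237 lower. Normalized counts did not overlap between groups for all 10 genes in CITED against MDSC and in CITED against MDSC-NP-Blk, where 42.5% and 21.2% of all genes did not overlap, and for 8 of 10 in MDSC-NP-Blk against MDSC, where 35.6% did not.

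**Figure D1:**
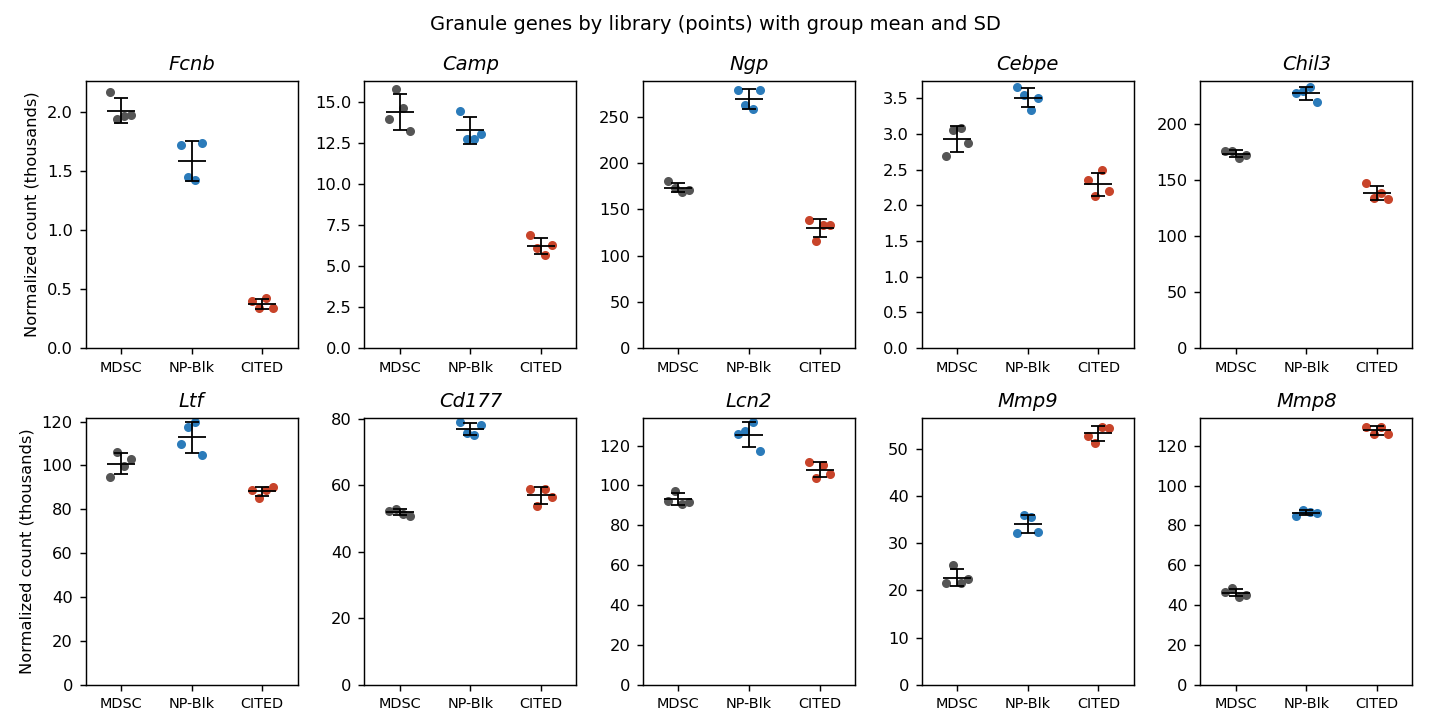
Normalized count of each granule gene in the 12 libraries, on the TMM scale. Points are libraries, the long line is the mean of a group and the bars its SD (n = 4), and NP-Blk stands for MDSC-NP-Blk. Fcnb and Camp sit lowest in CITED, Ngp, Chil3, Cebpe, Lcn2, and Cd177 highest in MDSC-NP-Blk, and Mmp8 and Mmp9 climb from MDSC through MDSC-NP-Blk to CITED.

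Cebpe lies on chromosome 14 (54947817 to 54949631, minus strand, GRCm39). Its normalized counts were 2690, 3053, 3083, and 2870 in MDSC. The MDSC-NP-Blk libraries held 3663, 3539, 3331, and 3497, and the CITED libraries 2358, 2133, 2491, and 2193. The groups did not overlap, with MDSC-NP-Blk highest and CITED lowest. Cebpe fell by 0.35 on the log2 scale in CITED against MDSC (SE 0.0581, adjusted p = 4.53e-06) and fell by 0.61 against MDSC-NP-Blk (SE 0.0582, adjusted p = 3.14e-10). It rose in MDSC-NP-Blk against MDSC (0.26, SE 0.0574, adjusted p = 3.09e-04), although the value was 1.44e-05 with library size alone (adjusted p = 1.0) and 0.066 with the effect of transcript length removed (adjusted p = 0.354).

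Promoter sequence was examined because C/EBP proteins bind the promoters of granule genes. Windows of 250 bases upstream of the RefSeq start were found for 8 of the 10 genes in a RefSeq promoter table (GRCm38.p6), and each was located on GRCm39 by its exact sequence. No window was used for Mmp9 and Cebpe. Matches were sought on both strands to TTGCNNAA for C/EBP, GAGGAA for PU.1, another factor of myeloid cells, and to the NF-kB motif, in the form of a GGGA and a TCC set 3 bases apart. The C/EBP letters occurred in 5 of the 8 windows (Ltf, Ngp, Lcn2, Mmp8, and Fcnb) and in 9.56% of 32851 windows of all genes. The PU.1 letters occurred in 4 (Ltf, Lcn2, Mmp8, and Cd177) and in 23.3% of all windows, and the NF-kB letters in 0 and in 3.86%. The windows of Camp and Chil3 held none of the 3, but only 89 of the 250 bases for Camp lay before its annotated gene start. The rest of that window lay within the gene, so most of the sequence upstream of Camp was not searched. In Lcn2, 192 bases lay before the start of the canonical transcript, and its PU.1 match at −20 lay past that start. No match overlapped another, and a match is a description of letters, not a shown binding site.

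Upstream sequences are given of 4 genes that hold a C/EBP match, picked with their directions between the groups, described below, already known. Lcn2 also holds a match and is not shown. Whether a match goes with a direction was not tested. They run 5′ to 3′ on the strand of the gene, up to the annotated gene start, or for Mmp8 up to the RefSeq start, which lies upstream of it, with matches in capitals. Positions are counted back from the RefSeq start. In Ltf (chr9:110848110-110848338, plus strand) the capitals mark a PU.1 match at −157 and a C/EBP match at −75. In Ngp (chr9:110248626-110248814, plus strand) they mark a C/EBP match at −138, and another at −11 lies beyond the stretch shown. In Fcnb (chr2:27974898-27975140, minus strand) they mark C/EBP matches at −235 and −123. In Mmp8 (chr9:7558180-7558429, plus strand) they mark a PU.1 match at −219 and a C/EBP match at −19.
Ltf: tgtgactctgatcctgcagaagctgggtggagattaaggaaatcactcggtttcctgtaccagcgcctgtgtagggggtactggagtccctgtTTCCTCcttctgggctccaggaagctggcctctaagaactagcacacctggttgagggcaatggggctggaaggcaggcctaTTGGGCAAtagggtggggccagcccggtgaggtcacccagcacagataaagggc
Ngp: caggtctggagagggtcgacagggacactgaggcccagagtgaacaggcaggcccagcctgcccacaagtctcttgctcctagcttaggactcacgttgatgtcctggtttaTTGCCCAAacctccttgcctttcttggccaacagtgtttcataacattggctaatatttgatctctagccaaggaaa
Fcnb: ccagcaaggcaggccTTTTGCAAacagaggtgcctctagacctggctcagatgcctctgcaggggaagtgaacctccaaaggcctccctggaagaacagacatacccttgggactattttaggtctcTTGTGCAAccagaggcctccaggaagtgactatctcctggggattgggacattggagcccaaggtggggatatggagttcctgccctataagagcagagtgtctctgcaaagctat
Mmp8: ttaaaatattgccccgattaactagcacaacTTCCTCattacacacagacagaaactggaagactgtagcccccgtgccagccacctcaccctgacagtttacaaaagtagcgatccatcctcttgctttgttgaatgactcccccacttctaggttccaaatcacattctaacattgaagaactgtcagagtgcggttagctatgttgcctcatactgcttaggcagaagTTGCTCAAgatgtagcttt

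Fcnb and Camp were the granule genes called lower in CITED against MDSC. Fcnb encodes ficolin B, a lectin that recognizes acetylated sugars on microbes, and lies on chromosome 2 (27966389 to 27974897, minus strand, GRCm39). In MDSC its normalized counts were 2174, 1946, 1967, and 1974, and in MDSC-NP-Blk they were 1724, 1450, 1428, and 1737. In CITED they were 399, 339, 423, and 337. The highest CITED library lay far under the lowest library of either other group, and MDSC-NP-Blk lay wholly under MDSC. CITED stood at 18.6% of MDSC (log2 fold change −2.43, SE 0.0833, adjusted p = 2.23e-22) and at 23.6% of MDSC-NP-Blk (−2.08, SE 0.0834, adjusted p = 1.67e-19), and both were called. MDSC-NP-Blk stood at 78.5% of MDSC (−0.35, SE 0.0747, adjusted p = 2.34e-04). The lowest raw count of Fcnb in any library was 277, far over a floor of 3 counts, which marks low counts but took no gene out of the list medians below.

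Camp encodes the antimicrobial peptide cathelicidin and lies on chromosome 9 (109676442 to 109678685, minus strand). Normalized counts of Camp were 14003, 15803, 14653, and 13251 in MDSC. They were 14504, 12789, 12773, and 13088 with blank particles, and 6897, 6097, 5715, and 6306 in CITED. MDSC and MDSC-NP-Blk overlapped, and all CITED libraries lay lower. CITED was at 43.3% of MDSC (log2 fold change −1.21, SE 0.0575, adjusted p = 1.10e-18) and at 47.1% of MDSC-NP-Blk (−1.09, SE 0.0574, adjusted p = 2.29e-16), and both were called. The difference between MDSC-NP-Blk and MDSC was −0.12 (SE 0.0564, adjusted p = 0.0987), which did not pass. It passed without MDSC replicate 4 (−0.16, adjusted p = 0.0375), without MDSC-NP-Blk replicate 1 (−0.165, adjusted p = 0.0163), with library size alone (−0.38, adjusted p = 3.26e-07), and with the effect of transcript length removed (−0.405, adjusted p = 3.57e-10).

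Ngp and Chil3 shared another profile, highest with blank particles and lowest in CITED. Ngp encodes neutrophilic granule protein, a cystatin-like protein, and lies on chromosome 9 (110248815 to 110252086, plus strand). The MDSC libraries had Ngp counts of 180534, 173095, 168714, and 170917 after normalization. Those of MDSC-NP-Blk were 279032, 262763, 258017, and 278599, and those of CITED 138275, 115895, 133381, and 133207. The groups stood apart in all libraries. Ngp rose 1.56-fold in MDSC-NP-Blk against MDSC (log2 fold change 0.64, SE 0.0437, adjusted p = 3.99e-14). It fell in CITED to 75.1% of MDSC (−0.41, SE 0.0436, adjusted p = 6.24e-10) and to 48.3% of MDSC-NP-Blk (−1.05, SE 0.0440, adjusted p = 5.68e-19). The latter was called, but without CITED replicate 2 it lay at −0.997 and was not.

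Chil3 encodes the chitinase-like protein Ym1, on chromosome 3 (106054870 to 106074880, minus strand). Normalized counts of Chil3 ranged from 169558 to 176177 in MDSC, from 219290 to 233187 in MDSC-NP-Blk, and from 132789 to 146927 in CITED, with no overlap. Its log2 fold changes were 0.39 (SE 0.0374, adjusted p = 1.40e-10) in MDSC-NP-Blk and −0.33 (SE 0.0374, adjusted p = 3.06e-09) in CITED, each against MDSC, and −0.72 (SE 0.0375, adjusted p = 1.76e-16) between CITED and MDSC-NP-Blk. Of the 31-base words of its transcript, 44.8% occur in other genes, mostly Chil4, so reads may be split between them. Chil4 had at most 13 counts in a library.

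Ltf, Lcn2, and Cd177 were called in no comparison. Ltf encodes lactoferrin, which binds iron, and lies on chromosome 9 (110848339 to 110871835, plus strand). The MDSC libraries spanned 94917 to 106038 normalized counts of Ltf, those with blank particles 104562 to 119991, and those of CITED 85297 to 90042. The first 2 of these groups overlapped, and CITED lay under both. Ltf fell in CITED to 87.6% of MDSC (log2 fold change −0.19, SE 0.0432, adjusted p = 3.56e-04) and to 78.2% of MDSC-NP-Blk (−0.35, SE 0.0432, adjusted p = 6.55e-08). In MDSC-NP-Blk against MDSC it rose (0.16, SE 0.0432, adjusted p = 0.00235), but turned to −0.099 with library size alone.

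Lcn2 encodes lipocalin 2, which captures the iron carriers of bacteria, and lies on chromosome 2 (32274645 to 32278264, minus strand). Lcn2 spanned 90768 to 97463 normalized counts in MDSC, 117305 to 131892 with blank particles, and 103846 to 111791 in CITED, with CITED between the other groups and no overlap. The log2 fold change was 0.43 (SE 0.0405, adjusted p = 7.62e-11) in MDSC-NP-Blk against MDSC and −0.22 (SE 0.0405, adjusted p = 7.95e-05) in CITED against MDSC-NP-Blk. In CITED against MDSC it was 0.21 (SE 0.0405, adjusted p = 3.39e-05), but −0.06 with library size alone and −0.026 with the effect of length removed.

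Cd177 encodes a membrane glycoprotein of specific granules and the neutrophil surface, on chromosome 7 (24443408 to 24459747, minus strand). It had 50821 to 52914 normalized counts in MDSC, 75072 to 78857 with blank particles, and 53631 to 58879 in CITED, again with CITED between the others and no overlap. Cd177 rose in MDSC-NP-Blk against MDSC by a log2 fold change of 0.57 (SE 0.0399, adjusted p = 6.94e-14) and fell in CITED against MDSC-NP-Blk (−0.43, SE 0.0399, adjusted p = 1.54e-10). In CITED against MDSC it was 0.14 (SE 0.0398, adjusted p = 0.00474), but −0.14 with library size alone (adjusted p = 0.0018). A share of 7.56% of its 31-base words occurs in other genes, mostly Lypd11.

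The 2 metalloproteases went the other way and were highest in CITED. Mmp8 encodes neutrophil collagenase, stored in specific granules, and lies on chromosome 9 (7558457 to 7568487, plus strand). The MDSC libraries had 46778, 48610, 44329, and 45344 normalized counts of Mmp8. With blank particles the values were 84723, 88023, 86748, and 86279, and with rapamycin particles 129466, 125779, 129624, and 126129. The 3 groups formed separate steps. Mmp8 rose 2.76-fold in CITED against MDSC (log2 fold change 1.47, SE 0.0389, adjusted p = 2.43e-25), which was called. It rose 1.87-fold in MDSC-NP-Blk against MDSC (0.90, SE 0.0384, adjusted p = 2.32e-19) and 1.48-fold in CITED against MDSC-NP-Blk (0.56, SE 0.0382, adjusted p = 1.09e-13). Exons of Mmp8 overlap those of Gm31751 on the opposite strand, and whether the counting used strand is not stated.

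Mmp9 encodes gelatinase B, which gives the gelatinase granule its name, and lies on chromosome 2 (164780439 to 164797771, plus strand). Its normalized counts were 21484, 25405, 21457, and 22512 in MDSC. They were 32177, 35884, 35446, and 32454 in MDSC-NP-Blk and 52705, 51175, 54670, and 54386 in CITED. As for Mmp8, each group lay wholly over the one before. Mmp9 rose 2.34-fold in CITED against MDSC (log2 fold change 1.23, SE 0.0502, adjusted p = 2.02e-20), which was called, although with library size alone the value was 0.955 and it was not. It rose 1.497-fold in MDSC-NP-Blk against MDSC (0.58, SE 0.0497, adjusted p = 8.88e-12) and 1.57-fold in CITED against MDSC-NP-Blk (0.65, SE 0.0497, adjusted p = 2.33e-12).

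**Figure D2:**
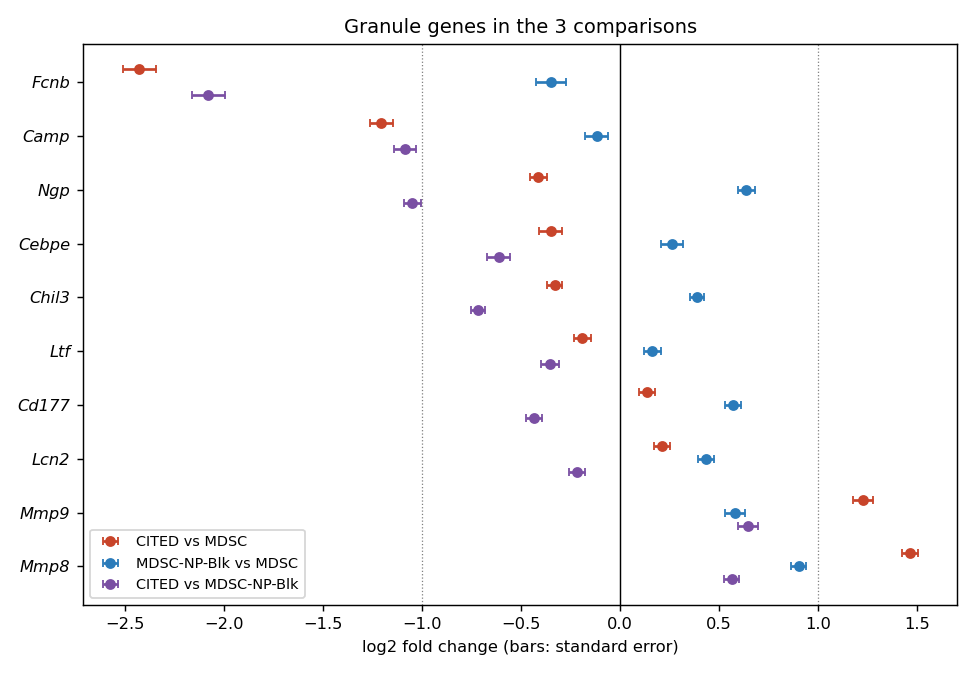
Log2 fold change (horizontal axis) of the 10 granule genes in the 3 comparisons, with bars for the standard error and dotted lines at the threshold for a call. In CITED against MDSC the values run from −2.43 for Fcnb to 1.47 for Mmp8, and Lcn2 and Cd177 turn negative with library size alone. The comparisons share groups and are not independent.

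The median log2 fold change of the 10 genes was −0.26 in CITED against MDSC, 0.41 in MDSC-NP-Blk against MDSC, and −0.52 in CITED against MDSC-NP-Blk, as against −0.052, −0.027, and 0 over all genes tested. With library size alone the medians of the 10 genes were −0.53, 0.15, and −0.54, and with the effect of length removed −0.36, 0.20, and −0.52, in the same order. Together they held 3.10% to 3.18% of all counts in a MDSC library, 3.59% to 3.68% with blank particles, and 2.60% to 2.75% in CITED, with no overlap. On the TMM scale their summed normalized counts were 665442 to 700504 in MDSC and 678389 to 736709 in CITED, which overlapped, and 934829 to 957884 with blank particles.

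Per kilobase of transcript, the genes spanned a wide range of levels, and their order was the same in MDSC and MDSC-NP-Blk but differed in CITED. In MDSC, Ngp stood at 5725 ± 169.6 CPM per kilobase (SD, n = 4) and ranked 4th of all genes. Chil3 (4575 ± 82.6), Lcn2 (4123 ± 134), and Ltf (1479 ± 69.6) followed. Mmp8 (774 ± 31.1), Cd177 (771 ± 13.5), and Camp (767 ± 57.5) overlapped, and Mmp9 (290.1 ± 23.8), Cebpe (95.6 ± 5.96), and Fcnb (69.9 ± 3.69) came last. In MDSC-NP-Blk the order kept Ngp first (8905 ± 357) and Fcnb last (54.9 ± 5.84), and among neighbors only Chil3 (5990.1 ± 154) and Lcn2 (5565 ± 269.8) overlapped. In CITED, Lcn2 came first (4782 ± 163), ahead of Ngp (4300.2 ± 324) and Chil3 (3640.3 ± 168), which overlapped. Mmp8 (2136 ± 34.8) then lay over Ltf (1296 ± 30.4), and Mmp9 (679.9 ± 20.7) over Camp (332 ± 26.3). Fcnb, at 12.98 ± 1.505, moved from rank 817 of all genes in MDSC to rank 1238 in MDSC-NP-Blk and rank 4116 in CITED.

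Ratios of raw counts within a library do not depend on how libraries are scaled. The ratio of Mmp8 to Ltf lay between 0.441 and 0.493 in MDSC, between 0.723 and 0.825 in MDSC-NP-Blk, and between 1.401 and 1.475 in CITED. That of Mmp8 to Camp was 3.03 to 3.42, 5.84 to 6.88, and 18.8 to 22.7 in the same order, and that of Mmp9 to Ltf 0.216 to 0.240, 0.294 to 0.310, and 0.592 to 0.615. These 3 ratios did not overlap between any groups. Ngp to Camp was 10.95 to 12.90 in MDSC, and its ranges in MDSC-NP-Blk (19.2 to 21.3) and CITED (19.0 to 23.3) overlapped. Mmp9 to Mmp8 was 0.459 to 0.523 in MDSC, wholly over the ranges in MDSC-NP-Blk (0.376 to 0.409) and CITED (0.407 to 0.431), which overlapped.

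**Figure D3:**
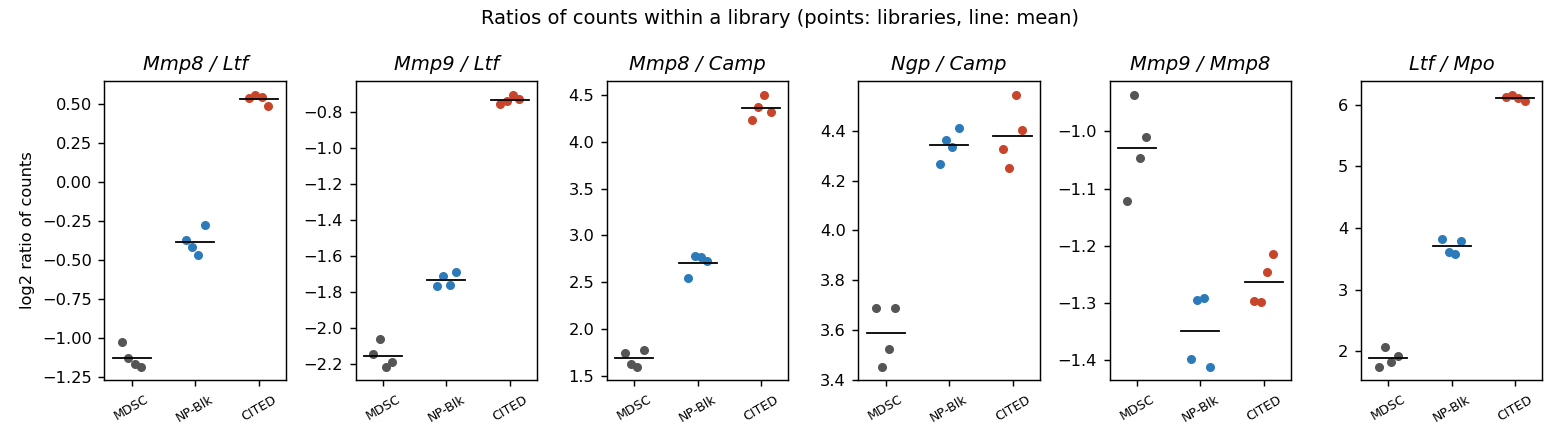
Ratios of raw counts of 2 genes within each library, on a log2 axis that differs between panels. Points are libraries and the line is the group mean, with NP-Blk for MDSC-NP-Blk. The 3 groups separate for Mmp8/Ltf, Mmp9/Ltf, Mmp8/Camp, and Ltf/Mpo, whereas MDSC-NP-Blk and CITED overlap for Ngp/Camp.

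Other genes of the same granules were compared from wider lists. Of 14 other specific granule genes, 13 were tested. In CITED against MDSC 5 of them rose and 7 fell, with a median of −0.23, or 5 and 8 with library size alone, with a median of −0.50. Plaur (1.44, SE 0.0481, adjusted p = 1.2e-22), the urokinase receptor, and Slpi (1.28, SE 0.0541, adjusted p = 5.1e-20), a protease inhibitor, were called higher. Orm1 (−3.05, SE 0.284, adjusted p = 3.6e-11), an acute phase protein, was called lower. Olfm4, olfactomedin 4, fell (−0.29, SE 0.0519, adjusted p = 1.4e-05), and Pglyrp1, a peptidoglycan-binding protein, was at 0.025 (SE 0.0514, adjusted p = 0.74). Between MDSC-NP-Blk and MDSC, 8 of the 13 rose and 4 fell (median 0.24), or 5 and 5 with library size alone (median −0.021), and in CITED against MDSC-NP-Blk 4 rose and 8 fell (median −0.29).

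The 9 other gelatinase granule genes were more uniform, with 8 that rose and 0 that fell in CITED against MDSC (median 0.51), or 6 and 0 with library size alone (median 0.24). The formyl peptide receptors Fpr1 (1.16, SE 0.0767, adjusted p = 6.4e-15) and Fpr2 (1.15, SE 0.0604, adjusted p = 1.4e-17) and the membrane-bound metalloprotease Mmp25 (1.08, SE 0.078, adjusted p = 7.4e-14) were called higher, but none of the 3 with library size alone. Tnfaip6, at 0.49 (SE 0.427, adjusted p = 0.37), did not pass. With blank particles 5 of the 9 rose and 0 fell against MDSC (median 0.22), or 3 and 3 with library size alone (median −0.038), with Tnfaip6 called higher (1.05, SE 0.417, adjusted p = 0.045) at a mean of about 24 normalized counts and with overlapping groups. In CITED against MDSC-NP-Blk 7 rose and 0 fell (median 0.31).

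Genes of the stages before and after were set beside them. Of 10 azurophil granule genes, 6 were called lower and 3 rose in CITED against MDSC, with a median of −2.05, and 6 were called lower and 1 rose with library size alone. Myeloperoxidase, Mpo, had 25204 to 28195 normalized counts in MDSC, 7538 to 10039 with blank particles, and 1191 to 1354 in CITED (CITED against MDSC −4.41, SE 0.0759, adjusted p = 5.2e-31). Neutrophil elastase, Elane (−3.27, SE 0.0561, adjusted p = 5.2e-31), was also called lower, whereas lysozyme, Lyz2 (0.34, SE 0.0453, adjusted p = 8.5e-08), and the membrane protein Cd63 (0.56, SE 0.0469, adjusted p = 2.5e-12) rose. Against MDSC, MDSC-NP-Blk had 6 that fell, 2 of them called, and 2 that rose (median −0.57), or 8 and 0 with library size alone, and in CITED against MDSC-NP-Blk 6 were called lower and 2 rose (median −1.27). Bpi had at most 12 counts in a library. The ratio of Ltf to Mpo within a library lay between 3.37 and 4.21 in MDSC, between 11.95 and 14.18 with blank particles, and between 66.5 and 71.6 in CITED.

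Of 15 genes of secretory vesicles and late neutrophils, 14 were tested. Between CITED and MDSC, 12 rose and 0 fell, 5 were called, and the median was 0.51, whereas with library size alone 9 rose, 2 fell, and the median was 0.24. Retnlg, a resistin-like protein (1.61, SE 0.0661, adjusted p = 2.1e-20), and the G-CSF receptor, Csf3r (1.54, SE 0.055, adjusted p = 6.4e-22), were among those called. The calcium-binding proteins S100a8 (−0.0047, SE 0.0471, adjusted p = 0.96) and S100a9 (0.0073, SE 0.0452, adjusted p = 0.93) did not pass. All 14 rose in MDSC-NP-Blk against MDSC (median 0.62, 3 called), or 9 with library size alone (median 0.36), and in CITED against MDSC-NP-Blk 3 rose and 3 fell, with a median of 0.039.

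**Figure D4:**
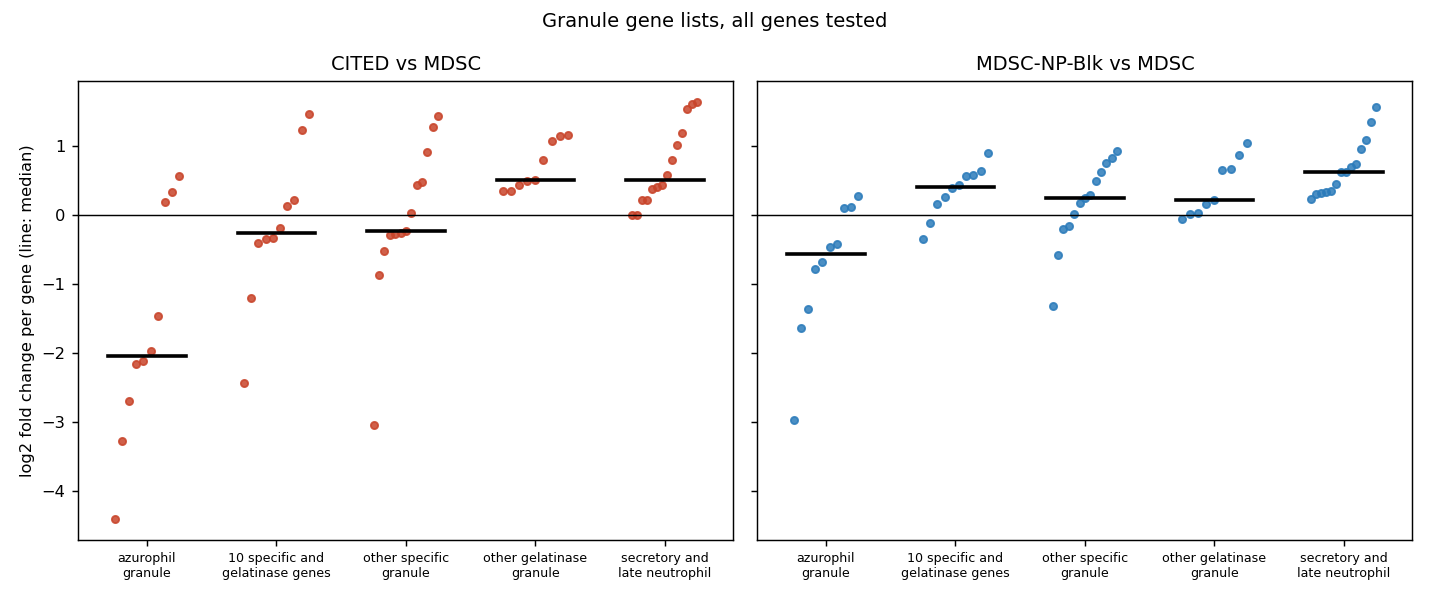
Log2 fold change of each tested gene in 5 lists, for CITED against MDSC (left) and MDSC-NP-Blk against MDSC (right). The lists run from azurophil through specific and gelatinase to late neutrophil genes. The 10 granule genes, which mix stages, stand after the azurophil genes. Points are genes and the line is the median of a list, on TMM scaling. In CITED the medians run from −2.05 for azurophil genes through −0.26 for the 10 granule genes to 0.51 for gelatinase and late neutrophil genes. In the right panel the medians are −0.57, 0.41, 0.24, 0.22, and 0.62 in the order shown. With library size alone the right medians of the other specific and gelatinase genes turn to −0.021 and −0.038. Both comparisons share the MDSC libraries.

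Regulators and partners of the granule genes were also listed. Of 10 granulocyte transcription factors and regulators, 5 rose and 4 fell in CITED against MDSC (median 0.22), or 5 and 5 with library size alone (median −0.058). Cebpb (1.51, SE 0.0521, adjusted p = 2.9e-22), a C/EBP factor of emergency granulopoiesis, and the pseudokinase Trib1 (1.49, SE 0.0786, adjusted p = 1.7e-17) were called higher. The repressor Gfi1 (−2.12, SE 0.0903, adjusted p = 5.7e-20) and Ets1 (−1.06, SE 0.0567, adjusted p = 2.2e-17) were called lower. Cebpa, a factor of early myeloid commitment, had the pattern of Cebpe, at −0.19 (SE 0.0545, adjusted p = 0.0033) in CITED and 0.22 (SE 0.0541, adjusted p = 0.0014) in MDSC-NP-Blk, each against MDSC, the latter turning to −0.047 with library size alone. Between MDSC-NP-Blk and MDSC 7 rose and 2 fell (median 0.42), or 5 and 3 with library size alone (median 0.16), and in CITED against MDSC-NP-Blk 2 rose and 4 fell (median −0.018).

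Of 9 binding partners and inhibitors of the granule proteins, 7 were tested, and in CITED against MDSC 2 rose and 2 fell (median −0.36, or −0.63 with library size alone). Srgn (1.06, SE 0.0435, adjusted p = 2.1e-20), the serglycin core that packs granule proteins, was called higher, but no gene of the list was with library size alone or with the effect of length removed. Timp2, a metalloprotease inhibitor, rose (0.69, SE 0.057, adjusted p = 2.2e-12), and Serpinb1a, an inhibitor of neutrophil serine proteases, fell (−0.36, SE 0.0439, adjusted p = 1.6e-08). Timp1, the main inhibitor of Mmp9, had 125 to 238 normalized counts over the 12 libraries, with overlapping groups. With blank particles 3 of the 7 rose and 0 fell against MDSC (median 0.11, or −0.13 with library size alone), and in CITED against MDSC-NP-Blk 0 rose and 2 fell (median −0.42). These medians include genes of very few counts, and over the 5 partners with a mean normalized count above 50 they were 1.75e-05 in CITED and 0.39 in MDSC-NP-Blk, each against MDSC, and −0.068 between CITED and MDSC-NP-Blk.

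Of 9 paralogs, 7 were tested. Between CITED and MDSC 4 rose and 0 fell (median 0.40), or 3 and 1 with library size alone (median 0.13). Macrophage elastase, Mmp12 (1.29, SE 0.0448, adjusted p = 3.0e-22), was called higher, and collagenase 3, Mmp13 (0.91, SE 0.0936, adjusted p = 3.6e-10), and transferrin, Trf (0.67, SE 0.0556, adjusted p = 1.9e-12), rose. The blank particles gave 3 that rose and 1 that fell against MDSC (median 0.015, or −0.24 with library size alone), and in CITED against MDSC-NP-Blk 3 rose and 1 fell (median −0.083). Over the 4 paralogs with a mean normalized count above 50 the medians were 0.79, 0.41, and 0.43 in the same order, so the last turned in sign when genes of few counts were left out.

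Markers of the cell types that such a culture can hold moved as well. Of 8 granulocytic markers, which share 7 genes with the late neutrophil list and 1 with the gelatinase list, 6 rose and 0 fell in CITED against MDSC (5 and 2 with library size alone). Their sum was 2.24% to 2.55% of a library in CITED, 2.52% to 2.85% in MDSC, and 2.93% to 3.15% in MDSC-NP-Blk. On the TMM scale the sums overlapped between CITED (585804 to 681626) and MDSC (541985 to 628496). S100a8 and S100a9, which did not pass, had the largest mean normalized counts of the list (285896 and 317662.5). Of 9 monocytic markers 2 rose and 5 fell, with 0.311% to 0.333% of a library in CITED, 0.317% to 0.346% in MDSC, and 0.371% to 0.403% in MDSC-NP-Blk. The Ly6c2 marker fell (−0.35, SE 0.0443, adjusted p = 3.9e-08) and the monocyte gene F13a1 was called lower (−2.63, SE 0.0788, adjusted p = 5.9e-24). The 2 that rose were Csf1r (0.996, SE 0.0439, adjusted p = 1.5e-19) and Fn1 (0.47, SE 0.055, adjusted p = 6.1e-09). Of 8 macrophage markers 2 rose and 5 fell, with all 5 called lower and a median of −1.94. C1qa was at −4.05 (SE 0.179, adjusted p = 1.5e-19). Cd68 (1.06, SE 0.0488, adjusted p = 4.9e-19) was called higher, but not with library size alone or with the effect of length removed. The sum of all 8 was 0.0645% to 0.0707% of a library in CITED, 0.0651% to 0.0690% in MDSC, and 0.0444% to 0.0511% in MDSC-NP-Blk. Of 8 dendritic cell markers 2 rose and 2 fell (0.0387% to 0.0417%, 0.0525% to 0.0575%, and 0.0314% to 0.0332% in that order).

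Most markers of eosinophils and of mast cells and basophils fell in CITED against MDSC, unlike the granulocytic markers above. Of 9 eosinophil markers, 6 were called lower in CITED against MDSC and 1 rose, and they took 0.155% to 0.190% of an MDSC library, 0.102% to 0.124% of an MDSC-NP-Blk library, and 0.0420% to 0.0438% of a CITED library. Eosinophil peroxidase, Epx, was at −2.41 (SE 0.074, adjusted p = 1.1e-23). Of 8 mast cell and basophil markers, 0 rose and 6 fell, with 0.0702% to 0.0744% in MDSC, 0.0714% to 0.0819% with blank particles, and 0.0408% to 0.0413% in CITED. Of 8 lymphoid markers 0 rose and 4 fell, and of 7 erythroid markers 0 rose and 0 fell, and neither list passed 0.00324% of a library. The part of these cell types in the granule gene results was not tested.

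Among 10556 genes with a mean normalized count above 50, those most like each granule gene over the 12 libraries were found by Pearson's r of log2 CPM. The libraries fall into 3 groups, which set most of each r, so these values only describe. Fcnb was closest to the azurophil genes Elane (r = 0.995) and Prtn3 (0.995), and Camp to Sgpp1 (0.994) and Nkg7 (0.993). Ngp was closest to Serpinb1a (0.991) and Chil3 to Ly6c2 (0.997). Mmp8 was closest to Slc3a2 (0.997) and Mmp9 to Trem6l (0.998). Ltf was closest to Olfm4 (0.979), Lcn2 to Hnrnpk (0.978), Cd177 to Ccnd3 (0.991), and Cebpe to Tkt (0.970). Between granule genes, r was 0.982 for Camp and Fcnb but 0.102 once group means were removed, and 0.981 and 0.738 for Mmp8 and Mmp9.

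**Figure D5:**
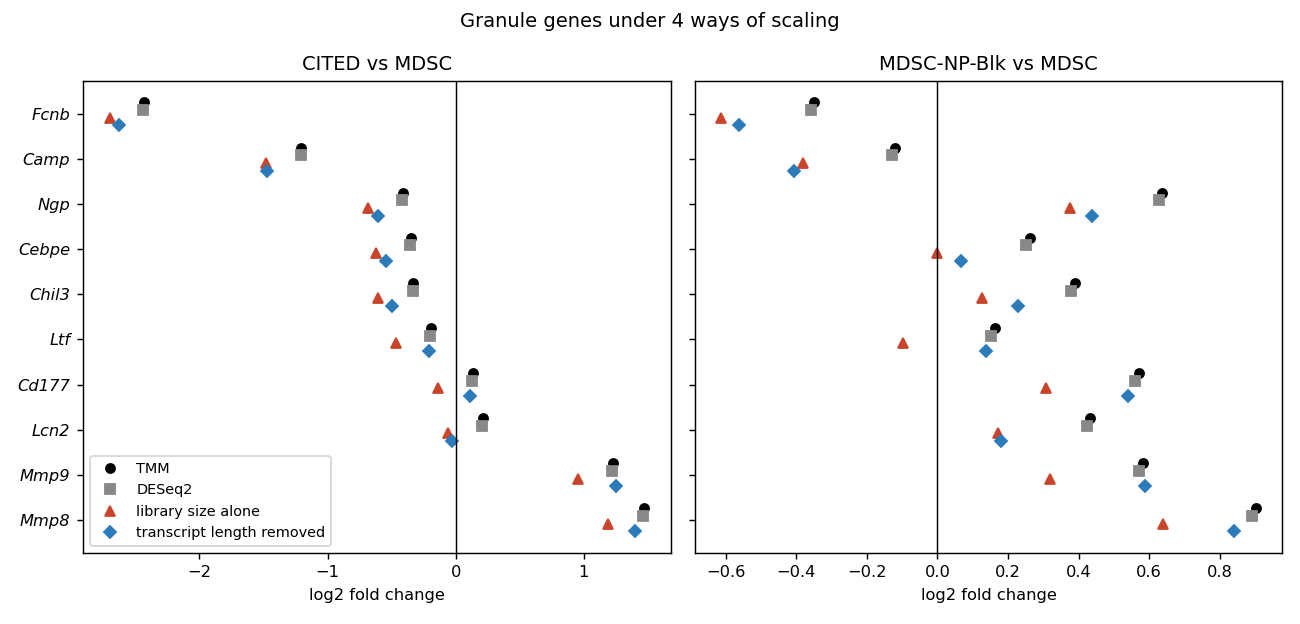
Log2 fold change of the 10 granule genes under 4 ways of scaling, for CITED against MDSC (left) and MDSC-NP-Blk against MDSC (right). TMM and DESeq2 nearly coincide, and library size alone lies under TMM for every gene, which turns Lcn2 and Cd177 negative on the left and Ltf on the right, while removing the effect of transcript length turns Lcn2 on the left.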

How the data were processed

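Groups and replicate numbers of the 12 bulk RNA-seq libraries were taken from the titles. Per the file, its values are raw counts: the authors deposited 1 integer count per symbol and library, obtained with Salmon 1.4.0 on GENCODE transcripts of GRCm39 and tximport in R 4.3.2, neither normalized nor filtered. The GENCODE release and the use of strand are not given in the sources used here.

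Symbols reaching 2 counts in sum over the 12 libraries (17676) were fitted in R 4.3.3 with edgeR 4.0.16 (TMM, glmQLFit, and glmQLFTest, group as the only term). The SE was taken as the absolute log2 fold change over the root of F. Levels per kilobase used canonical transcripts of a GENCODE annotation on GRCm39, which held 17648 of these symbols. Replicates differed beyond Poisson sampling (biological coefficient of variation 9.03%), and the floor of 3 counts covers counting error only. On simulated counts for CITED against MDSC (17311 genes, 200 changed) 202 were called, among them all 200.

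The granule genes and gene lists were chosen with earlier results of these data known. All 10 granule genes are named, with, from other lists, genes with the largest change between CITED and MDSC at a mean normalized count above 50, cell type markers, and the genes most correlated with each granule gene. Cebpa, Olfm4, Pglyrp1, Timp1, Tnfaip6, Bpi, Chil4, S100a8, and S100a9 were named after their values were seen. A gene that met the rule is not reported here. Once group means were removed, same-numbered libraries correlated between −0.060 and 0.140 across 10556 genes, so numbers were not taken as pairs.

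Alternatives were DESeq2 1.42.0, other scalings and filters, robust estimation, a loess correction for transcript length (span 0.5), a test against a log2 fold change of 1, a replicate block, the 8 libraries of a comparison, and fits without each library. Figures were made in matplotlib 3.10.9 (Python 3.11.15, pandas 2.3.3, numpy 2.4.6).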

Additional observations from a re-analysis of the deposited data

Results flagged for a closer look

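Fcnb in MDSC replicate 1, at 2174 normalized counts, stood apart as the highest of the 4 MDSC libraries, whose others lay between 1946 and 1974. The gap took more of the group's range than Dixon's 95% critical value for 4 samples allows. Of 30 gene and group combinations tested, 1 passed this limit, and chance flags about 1 in 20.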

How the results depend on the processing

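Of the 30 log2 fold changes of granule genes (10 genes in 3 comparisons), all 30 kept their direction and their side of the adjusted p threshold with DESeq2, RLE or upper quartile scaling, no filter or a stricter one, robust estimation, and the 8 libraries of a comparison. With library size alone 25 did, with the length correction 27, and with a replicate block 29. For the test against a log2 fold change of 1 only calls were compared, and 28 stayed called or not called as before. With library size alone, Lcn2 (−0.0603) and Cd177 (−0.138) reversed in CITED against MDSC and Ltf (−0.0987) in MDSC-NP-Blk against MDSC. The length correction reversed Lcn2 in CITED against MDSC (−0.0262). Library size alone gave 1 granule gene called higher and 2 that rose in CITED against MDSC and 3 that fell in MDSC-NP-Blk against MDSC, and over all genes 272 called higher and 1890 lower in CITED and 146 and 1060 in MDSC-NP-Blk, each against MDSC. The number that fell in MDSC-NP-Blk against MDSC was 2 with the replicate block and 2 with the length correction, since Camp passed there, and 1 to 2 when single libraries were left out (2 without MDSC replicate 4 or MDSC-NP-Blk replicate 1). Against a log2 fold change of 1, 1 granule gene was called lower in CITED against MDSC-NP-Blk, and over all genes 233 were called higher and 489 lower in CITED against MDSC, 81 and 62 in MDSC-NP-Blk against MDSC, and 14 and 45 in CITED against MDSC-NP-Blk. Counts at adjusted p alone have no value under that test. Pairing by replicate number is not stated, and with the block Camp in MDSC-NP-Blk against MDSC stood at −0.12 (adjusted p = 0.0299), the other 29 values being on the same side of the threshold. Of 360 values from leaving out single libraries, 358 kept direction and side of the adjusted p threshold. By fold change, Mmp9 in CITED against MDSC lost its call with library size alone (0.955), and Ngp in CITED against MDSC-NP-Blk without CITED replicate 2 (−0.997), where 2 to 3 genes were called lower when single libraries were left out. Depth did not limit the granule genes, of which the lowest count in a library was 277.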
